A study of Mus musculus with 4 samples.

Results

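The intermediate filament and tubulin genes of cochlear hair cell progenitors are described here. They are the genes of the deposited table whose symbol is Krt followed only by a number, or Tuba, Tubb, Tubg, Tubd or Tube followed by a number, together with *Vim*, *Nes*, *Gfap*, *Des*, *Prph*, *Nefl*, *Nefm*, *Nefh*, *Ina*, *Lmna*, *Lmnb1* and *Lmnb2*. The rule found 80 of 23997 genes, of which 60 encode intermediate filament proteins and 20 are tubulin genes, including the pseudogene *Tubb2a-ps2*. Keratin symbols that end in a letter are outside the rule.

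RNA-Seq was made from EGFP+ cells that were sorted from C57BL/6 mouse cochleae at postnatal day 3. The Lgr5+ progenitors came from Lgr5-EGFP-IRES-CreERT2 mice and the Lgr6+ progenitors from Lgr6-EGFP-IRES-CreERT2 mice, so both populations carry a reporter that also encodes an inducible Cre, and no further treatment is given. The labels list 2 libraries for each population, while the methods describe 3 fractions of 1 RNA extraction, with about 10000 cells for each library, and the number of mice pooled is not given. In the newborn cochlea *Lgr5* marks several supporting cell types, inner pillar cells among them, and the lateral greater epithelial ridge. *Lgr6* marks a subset of inner pillar cells, and the study describes Lgr6+ cells as a subpopulation of the Lgr5+ progenitors. The question was how the transcriptomes of these populations differ. The deposited table has 1 combined FPKM (read fragments scaled to the length of the transcript and to the size of the library) for each gene in each population. The spread between libraries is therefore not known, no difference below has a replicate check or a test, and every value is a description of these libraries.

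Intermediate filaments are rope-like polymers that give cells mechanical strength. Keratins assemble from pairs of 1 type I and 1 type II protein in epithelia, vimentin is typical of mesenchyme and of many immature cells, neurofilament proteins are typical of neurons, and lamins line the nucleus. Microtubules are polymers of alpha- and beta-tubulin pairs, gamma-tubulin starts new microtubules, and delta- and epsilon-tubulin belong to centrioles. Pillar cells and Deiters' cells, the supporting cells around the hair cells, are known for dense microtubule bundles, and cytokeratin is a common label of the cochlear epithelium.

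Coding sequences of beta-tubulin genes are shown because they set how well reads can be assigned to 1 isotype. Each line holds the last 75 bases of the coding sequence with its stop codon, 5′ to 3′, from GENCODE transcripts of build NCBIM37, where this end encodes most of the acidic tail in which tubulin isotypes differ. Capitals mark bases that differ from *Tubb2a*, and the 3 in the *Tubb2b* line do not change the encoded amino acids.
Tubb2a: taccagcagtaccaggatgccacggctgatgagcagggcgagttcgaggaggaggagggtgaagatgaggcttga
Tubb2b: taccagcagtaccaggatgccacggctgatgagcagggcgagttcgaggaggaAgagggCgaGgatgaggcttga
Tubb4b: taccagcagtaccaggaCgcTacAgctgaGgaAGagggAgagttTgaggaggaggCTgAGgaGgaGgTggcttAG
*Tubb2b* differs from *Tubb2a* at 3 of these 75 bases and at 47 of all 1338 coding bases. *Tubb4b* differs from *Tubb2a* at 17 of the 75 bases and at 220 of the 1338. Of all stretches of 150 bases in the *Tubb2b* transcript, 23.0% also occur in *Tubb2a*, and none occur in *Tubb4b*. For *Tuba1a*, 18.6% of such stretches also occur in *Tuba1b* and 29.6% in *Tuba1c*. Values within the *Tuba1a*, *Tuba1b* and *Tuba1c* group and within the *Tubb2a* and *Tubb2b* pair are therefore uncertain where the counting could split reads.

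Of the 80 genes, 40 were listed at 0 in both populations, 7 were above 0 but under an FPKM of 1 in both, and 33 reached an FPKM of 1 or more in either population. These 33 genes were kept for comparison. Of them 9 reached this level in 1 population only, so the filter fixed their direction, which holds for *Krt15*, *Krt222*, *Krt28*, *Krt1*, *Prph*, *Tubb6* and *Tubd1* toward Lgr6+ cells and for *Nefh* and *Tubb3* toward Lgr5+ cells. The 33 kept genes are 41.2% of the 80 genes, against 56% for all genes of the table. The 47 genes not kept include 39 of the 48 keratins, such as *Krt5* and *Krt14*, the keratin pair of basal epidermis, which were at 0 in both populations. *Gfap*, the filament protein of astrocytes and some other glia, was at 0 in both populations, and *Des*, the filament protein of muscle, was at 0 in Lgr5+ cells and at 0.0141 in Lgr6+ cells. Of the 5 intermediate filament genes with the highest FPKM in Lgr5+ cells, *Vim*, *Krt18*, *Krt8*, *Nefm* and *Lmna*, the first 3 had an FPKM above 100 there. Some kept genes were close to the filter, as *Prph* reached 1.04, *Krt1* 1.20 and *Tubb3* 1.18 in their higher population.

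**Figure D1:**
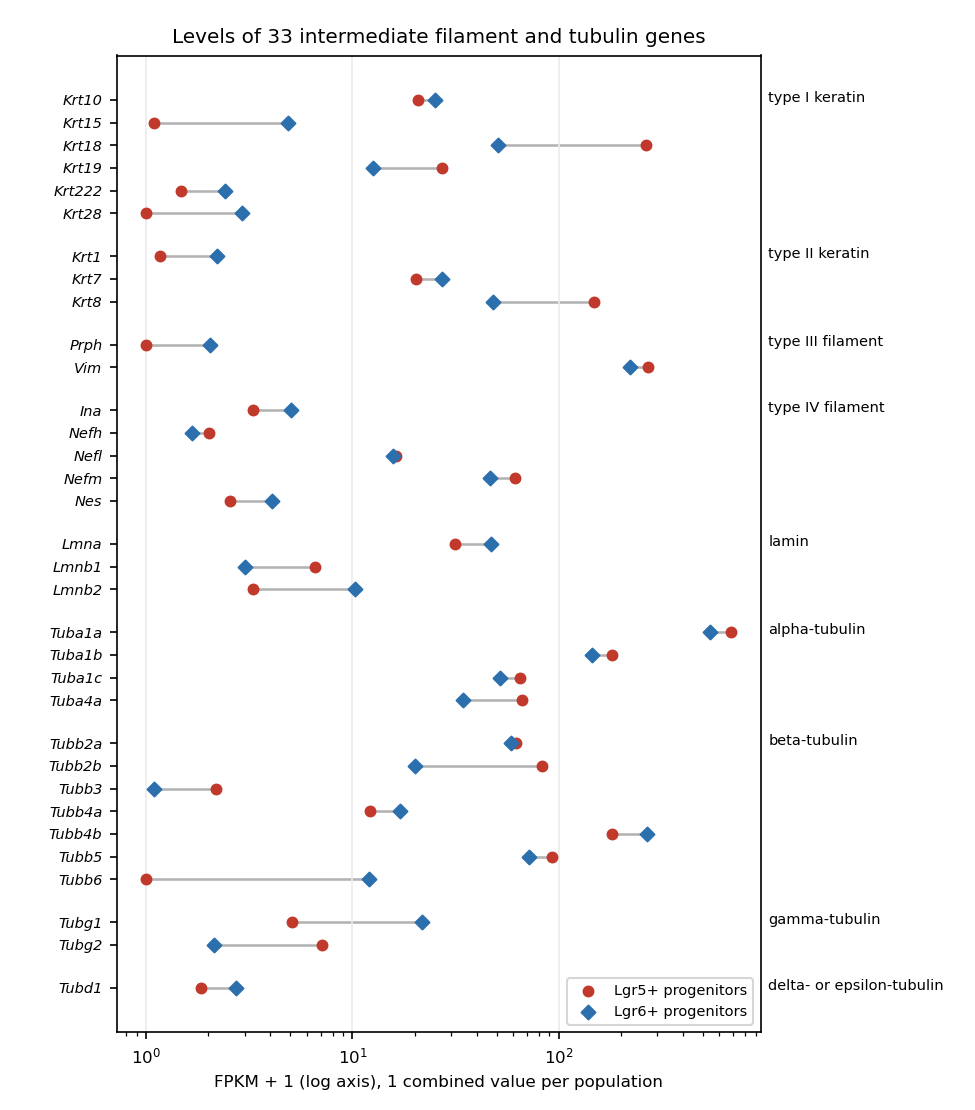
FPKM + 1 on a log axis for the 33 kept genes, ordered by protein class, with circles for Lgr5+ cells and diamonds for Lgr6+ cells, each 1 combined value without an error. *Tuba1a* is farthest to the right in both populations, and *Krt18*, *Krt8* and *Tubb2b* lie lower in Lgr6+ cells while *Tubb6* and *Tubg1* lie higher.

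Differences are given as log2(FPKM + 1) with the Lgr5+ value subtracted from the Lgr6+ value, so a low gene appears closer to 0 than its plain ratio would put it. At a threshold of 1.5-fold on this scale, 18 of the 33 genes were apart, against 51.8% of all 13436 kept genes. Of these, 8 of the 33 genes (24.2%) were higher in Lgr5+ cells, against 23.3% of all kept genes. In the other direction 10 of the 33 (30.3%) were higher in Lgr6+ cells, against 28.5% of all kept genes, and 15 were under 1.5-fold. Both shares are near those of all genes, so the number of genes that differed is not a result about this group. The median difference of the 33 genes was -0.05 and that of all kept genes 0.03. The FPKM values of all genes summed to 754163 in Lgr5+ cells and 627932 in Lgr6+ cells. When both were rescaled to the same sum, the median of all kept genes moved up by 0.26 and the calls became 8 and 15 of 34 genes, against 16.8% and 38.7% of all genes. Shares within a class and ratios of genes in the same population do not depend on that scaling.

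Some single genes lay at the edges of the distribution over all kept genes, in which 5% of differences were below -1.44 and 5% above 1.95. *Krt18*, *Krt8*, *Tubb2b* and *Tubg2* were below the lower limit, and *Krt15*, *Tubb6* and *Tubg1* were above the upper limit, 7 of 33 genes in all. Among genes that reached an FPKM of 5 in either population, 6 of 23 were outside the corresponding limits, with *Krt15* no longer included. Of these, *Tubg1*, *Tubg2* and *Tubb6* reached 5 only in their higher population, so that filter fixed their direction. At the filter of FPKM 1 the same held for *Krt15* and *Tubb6*.

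*Krt18* and *Krt8* encode the keratin pair of simple epithelia, and they were the most abundant keratin genes in both populations. *Krt18*, at 102028216 to 102032026 of chromosome 15 in the deposited table, had an FPKM of 264.7 in Lgr5+ cells and 49.6 in Lgr6+ cells. The Lgr5+ level was 5.33 times the Lgr6+ level, a log2 difference of -2.39. Of the 1076 genes at FPKM 100 or above in Lgr5+ cells, 7 including *Krt18* had a difference at least as negative. *Krt8*, the neighbouring gene of the table at 101996711 to 102004342 of the same chromosome, had an FPKM of 146.6 in Lgr5+ cells and 47.0 in Lgr6+ cells. This is a ratio of 3.12 and a log2 difference of -1.62, and 25 of the same 1076 genes went at least as far in that direction. Both genes thus were lower in Lgr6+ cells, and the order of the pair was kept, but the ratio of *Krt18* to *Krt8* was 1.81 in Lgr5+ cells and 1.06 in Lgr6+ cells.

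*Krt8* and *Krt18* lie head to head, 23.9 kb apart, with no other gene of the table between them. The 250 bases before their RefSeq starts are shown because both genes were lower in the same population. They are given 5′ to 3′ on the strand of each gene in build GRCm38.p6, *Krt8* from the minus strand of chr15:102004343-102004592 and *Krt18* from the plus strand of chr15:102027966-102028215.
Krt8: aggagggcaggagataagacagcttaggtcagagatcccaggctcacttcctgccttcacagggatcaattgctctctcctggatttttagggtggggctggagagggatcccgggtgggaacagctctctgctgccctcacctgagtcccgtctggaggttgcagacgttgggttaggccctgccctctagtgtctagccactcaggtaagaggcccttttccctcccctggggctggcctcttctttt
Krt18: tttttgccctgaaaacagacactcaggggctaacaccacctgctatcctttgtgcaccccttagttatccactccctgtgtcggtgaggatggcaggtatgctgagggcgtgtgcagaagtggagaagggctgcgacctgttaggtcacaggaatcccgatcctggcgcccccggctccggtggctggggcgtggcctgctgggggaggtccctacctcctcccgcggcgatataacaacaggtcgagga
These letters were searched on both strands for TATAAA, for GGGCGG, for TGANTCA and for CCAAT, and no match was found in either window, so no base is in capitals. Of 32851 such windows in the RefSeq table, TATAAA was found in 12.4%, GGGCGG in 32.7%, TGANTCA in 6.75% and CCAAT in 33.8%.

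*Krt19*, a small type I keratin of many simple and ductal epithelia, at 100140811 to 100145919 of chromosome 11, had an FPKM of 26.2 in Lgr5+ cells and 11.5 in Lgr6+ cells, a log2 difference of -1.12. It was the third keratin that was higher in Lgr5+ cells. *Krt7*, a type II keratin of simple epithelia, had an FPKM of 19.4 and 26.3, and *Krt10*, a type I keratin best known from the upper epidermis, had 19.8 and 24.1. Both were slightly higher in Lgr6+ cells and did not reach 1.5-fold. The other 4 kept keratins were at low levels, with an FPKM under 4 in both populations. *Krt15* had 0.0843 in Lgr5+ cells and 3.86 in Lgr6+ cells, *Krt28* was listed at 0 and had 1.90, *Krt1* had 0.172 and 1.20, and *Krt222* had 0.481 and 1.42. All 4 passed the filter only through Lgr6+ cells, so their direction was fixed by the filter, and none of them was kept where an FPKM of 1 was asked of both populations.

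The summed FPKM of all 48 keratins was 478 in Lgr5+ cells and 167 in Lgr6+ cells, a ratio of 2.86. *Krt18* made up 84.96% of the type I sum in Lgr5+ cells and 53.6% in Lgr6+ cells. *Krt8* made up 88.2% of the type II sum in Lgr5+ cells and 63.1% in Lgr6+ cells. The share of *Krt7* in the type II sum was 11.7% and 35.2%, and that of *Krt10* in the type I sum was 6.37% and 26.0%. The summed level of type I keratins was 1.87 times that of type II keratins in Lgr5+ cells and 1.24 times in Lgr6+ cells. The keratin mix of Lgr6+ cells thus was less dominated by *Krt8* and *Krt18*, with *Krt7* and *Krt10* at a larger share.

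**Figure D2:**
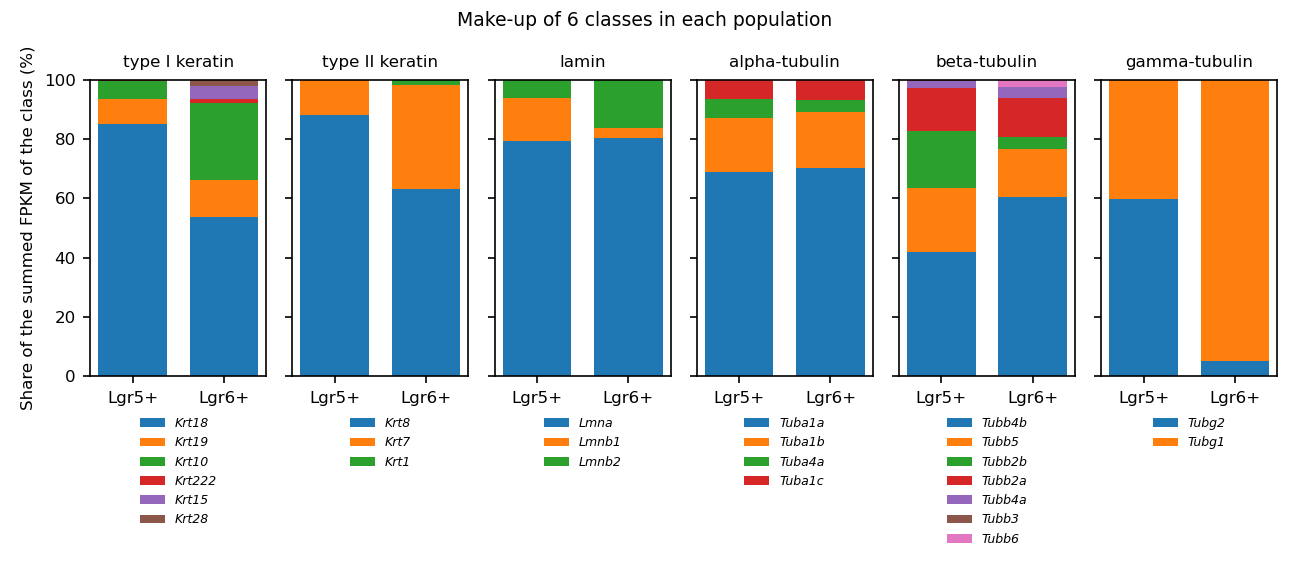
Share of each kept gene in the summed FPKM of its class (%), for 6 classes, with 1 bar for Lgr5+ and 1 for Lgr6+ cells and no errors. The alpha-tubulin bars are nearly alike, whereas *Tubb2b* shrinks from 19.2% to 4.31% of beta-tubulin, *Krt18* from 84.96% to 53.6% of type I keratin, and *Tubg1* takes 94.8% of gamma-tubulin in Lgr6+ cells.

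*Vim*, which encodes vimentin and is also found in supporting cells of the cochlea, had an FPKM of 270.2 in Lgr5+ cells and 220.1 in Lgr6+ cells, a log2 difference of -0.29. It was at percentile 96.7 of the kept genes in Lgr5+ cells and at percentile 96.6 in Lgr6+ cells. In Lgr5+ cells *Krt18* was at 0.980 times the level of *Vim*, and in Lgr6+ cells it was at 0.226 times. *Vim* therefore was the highest intermediate filament gene in both populations, close to *Krt18* in Lgr5+ cells and well above it in Lgr6+ cells. *Prph*, which encodes peripherin of peripheral neurons, was listed at 0 in Lgr5+ cells and at 1.04 in Lgr6+ cells.

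The neurofilament genes were close in both populations. *Nefm*, the medium chain, had an FPKM of 60.2 in Lgr5+ cells and 45.2 in Lgr6+ cells. *Nefl*, the light chain, had 15.2 and 14.7, and *Nefh*, the heavy chain, had 1.02 and 0.673. None of the 3 reached 1.5-fold on the log2(FPKM + 1) scale, and the order of the chains was the same in both populations. *Ina*, which encodes alpha-internexin of neurons, had 2.31 and 4.03, and *Nes*, which encodes nestin of neural progenitors, had 1.55 and 3.08. These 2 low genes were past 1.5-fold toward Lgr6+ cells, with log2 differences of 0.60 and 0.68. In the table *Nefm* shares its interval with *A230070E04Rik*, which had 7.43 and 15.9, and *Ina* and *Nefh* share theirs with *Nt5c2* and *Ap1b1*, so reads of these genes may not be fully told apart.

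Markers of neurons were present in both populations. Of 8 neuron markers 5 were kept, *Th* was at 0 in both populations, and the summed FPKM of the list was 60.1 in Lgr5+ cells and 100.4 in Lgr6+ cells. Within it *Snap25* had 7.63 and 53.4, *Stmn2* had 8.74 and 10.2, and *Syt1* had 31.0 and 17.2. *Tubb3*, the beta-tubulin most used as a neuron label, had an FPKM of 1.18 in Lgr5+ cells and 0.0959 in Lgr6+ cells. *Nefm* and *Nefl* therefore stood far above *Tubb3*, by FPKM, in the same libraries, whereas *Nefh* was below it in Lgr5+ cells. The part of neurons in these values was not tested.

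The 3 lamin genes went different ways. *Lmna*, which encodes lamins A and C, was the highest, with an FPKM of 30.6 in Lgr5+ cells and 46.0 in Lgr6+ cells, a log2 difference of 0.58 that is just under the threshold. *Lmnb1* had 5.58 in Lgr5+ cells and 2.02 in Lgr6+ cells, a log2 difference of -1.13. *Lmnb2* had 2.31 and 9.27, a log2 difference of 1.63. The B-type lamins thus exchanged order, and *Lmnb2* was at 0.414 times the level of *Lmnb1* in Lgr5+ cells and at 4.60 times in Lgr6+ cells. *Lmna* made up 79.5% and 80.3% of the lamin sum, so the share of the A-type gene was nearly the same.

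*Tuba1a*, the main alpha-tubulin of the developing nervous system, was the highest of all 80 genes. Its FPKM was 685 in Lgr5+ cells and 540 in Lgr6+ cells, at percentiles 98.6 and 98.4 of the kept genes. *Tuba1b* had 180.2 and 144.6, and *Tuba1c* had 63.7 and 51.2. The log2 differences of these 3 neighbours on chromosome 15, between 98931431 and 99038105, were -0.34, -0.32 and -0.31, and they became -0.08, -0.05 and -0.05 when both populations were rescaled to the same sum. The remaining kept alpha-tubulin, *Tuba4a*, at 75210829 to 75219253 of chromosome 1, had 65.1 and 33.3, a log2 difference of -0.95. *Tuba4a* shares its interval with the kinase gene *Stk16*, which had 33.5 and 24.2. *Tuba1a* made up 68.9% of the alpha-tubulin sum in Lgr5+ cells and 70.2% in Lgr6+ cells, and *Tuba1b* made up 18.1% and 18.8%, so the alpha-tubulin mix differed little.

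The beta-tubulin mix differed more. *Tubb2b*, an isotype of developing neurons, at 34127008 to 34130354 of chromosome 13, had an FPKM of 82.0 in Lgr5+ cells and 19.0 in Lgr6+ cells, a ratio of 4.32 and a log2 difference of -2.05. Of the 1949 genes at FPKM 50 or above in Lgr5+ cells, 19 including *Tubb2b* had a difference at least as negative. Its near copy *Tubb2a*, 49.0 kb away, had 61.0 and 57.4, a log2 difference of -0.09. The ratio of *Tubb2a* to *Tubb2b* was 0.744 in Lgr5+ cells and 3.02 in Lgr6+ cells. Although the pair shares most of its coding sequence, as the lines above show, its members thus were listed with unlike differences.

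*Tubb4b*, a broadly expressed isotype that is also found in cilia, was the highest beta-tubulin in both populations. Listed at 25218745 to 25224702 of chromosome 2, it had an FPKM of 179.8 in Lgr5+ cells and 267.1 in Lgr6+ cells. That interval is shared with *Fam166a*, which was listed at 0 in both populations, and RefSeq places *Tubb4b* at 25222158 to 25224702. Its log2 difference of 0.57 was just under 1.5-fold, and it was 0.83 after rescaling to the same sum. *Tubb5*, the general isotype of dividing and other cells, had 92.2 and 70.7, and *Tubb4a*, an isotype of brain, had 11.2 and 16.0. Neither reached 1.5-fold. *Tubb6*, a minor isotype, was listed at 0 in Lgr5+ cells and at 10.96 in Lgr6+ cells, the largest log2 difference of the 33 genes at 3.58. Its size depends on the added 1, and no ratio is given against 0.

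*Tubb4b* made up 42.1% of the beta-tubulin sum in Lgr5+ cells and 60.5% in Lgr6+ cells, while *Tubb2b* made up 19.2% and 4.31%. The summed FPKM of the beta-tubulins was 427 in Lgr5+ cells and 441 in Lgr6+ cells, and that of the alpha-tubulins was 994 and 769. The alpha sum was 2.33 times the beta sum in Lgr5+ cells and 1.74 times in Lgr6+ cells. All 20 tubulin genes together held 0.190% of the FPKM of all genes in Lgr5+ cells and 0.197% in Lgr6+ cells. The tubulin share of all expression thus was nearly the same, and the make-up of the beta-tubulins was not. All 60 intermediate filament genes held 0.115% and 0.0817%.

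The gamma-tubulin genes are neighbours on chromosome 11, 29.5 kb apart with no other gene of the table between them. *Tubg1*, the main gamma-tubulin of most cells, at 101120131 to 101126419, was listed with an FPKM of 4.10 in Lgr5+ cells and 20.6 in Lgr6+ cells, a log2 difference of 2.08. *Tubg2*, at 101155884 to 101161787, had 6.11 and 1.14, a log2 difference of -1.73. Their differences ran in opposite directions, and *Tubg1* made up 40.2% of the sum of both in Lgr5+ cells and 94.8% in Lgr6+ cells. *Tubd1*, which encodes delta-tubulin, had 0.853 and 1.73, and *Tube1*, which encodes epsilon-tubulin, was under 1 in both populations with 0.965 and 0.566.

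How many fragments the genes at low FPKM rest on is not known, as the table has no counts. FPKM times transcript length less 200 bases fell on steps in genes with 1 annotated transcript, with 114 products at a step of 0.129 in Lgr5+ cells against 8 in equally wide neighbouring stretches. The step in Lgr6+ cells was 0.0399, with 51 products against 7, which would make the Lgr6+ values 3.22 times as deep if a step is 1 fragment in both. The level of *Tubb6* in Lgr6+ cells would equal 133 of the Lgr5+ steps, and the same count is 21.0 for *Krt28* and 13.4 for *Prph*. These genes were listed at 0 in Lgr5+ cells. The part of depth in those listed values was not tested, and Cufflinks may also list a gene at 0 when its estimate fails. Counted in the steps of each population itself, *Krt15* stood at 0.982 in Lgr5+ cells and at 145 in Lgr6+ cells. In the same way *Krt1* stood at 2.997 and 67.7, and *Tubb3* at 15.3 and 4.01. Counted in Lgr5+ steps, the Lgr6+ levels would be 45.0 for *Krt15*, 21.0 for *Krt1* and 1.24 for *Tubb3*.

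The sorted and identity genes were examined beside these values. *Lgr5* had an FPKM of 9.65 in Lgr5+ cells and 24.99 in Lgr6+ cells, so it was higher in the population sorted for *Lgr6*. *Lgr6* had 2.06 and 2.90, under 1.5-fold. *Sox2*, a supporting cell marker, had 139.6 and 54.8. By their own transcripts the sorting genes thus do not separate the populations in the direction of both labels, and every direction above is that of the labelled populations.

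Markers of other cell types also differed. Of all kept genes, 28.5% were past 1.5-fold toward Lgr6+ cells and 23.3% toward Lgr5+ cells. Endothelial markers summed to 10.9 in Lgr5+ cells and 80.7 in Lgr6+ cells, with 6 of 6 past 1.5-fold toward Lgr6+ cells. Macrophage markers summed to 1.12 and 204.9, with 6 of 6 kept genes past 1.5-fold. Their list holds 7 genes, 5 of them at 0 in Lgr5+ cells. Schwann cell and glial markers summed to 157.3 and 302.4, with 2 of 5 kept genes past 1.5-fold, from a list of 6. Hair cell markers summed to 233 and 507, with 6 of 7 past 1.5-fold. Fibroblast and mesenchyme markers summed to 325 and 344, with 3 of 8 past 1.5-fold toward Lgr6+ cells and 1 toward Lgr5+ cells. Melanocyte markers summed to 3.84 and 52.99, most of it *Kcnj13* with 3.33 and 49.1. Of the 5 melanocyte markers 2 were kept, and these 2 were past 1.5-fold toward Lgr6+ cells. Smooth muscle and pericyte markers summed to 8.34 and 9.83, with 1 of 2 kept genes past 1.5-fold, from a list of 6. Cycling cell markers summed to 19.7 and 31.5, with 3 of 5 kept genes past 1.5-fold, from a list of 6. Supporting cell markers summed to 3370 and 3425, most of it *S100a1*, with 2 of 7 past 1.5-fold toward Lgr5+ cells and 1 toward Lgr6+ cells. In such bulk samples fewer cells of a type and less RNA per cell cannot be told apart, and the part of these cell types in the lower *Krt8* and *Krt18* or the higher *Tubb6*, *Prph* and *Nes* of Lgr6+ cells was not tested.

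Genes that work with keratins and with the other filaments were taken from fixed lists. Beside the counts of each list stand the shares of all kept genes, 23.3% toward Lgr5+ cells and 28.5% toward Lgr6+ cells. With both populations rescaled to the same sum, the shares of all genes were 16.8% and 38.7%. Of 22 genes of keratin binding and desmosomes 16 were kept, of which 6 were past 1.5-fold toward Lgr5+ cells and 4 toward Lgr6+ cells, with a median log2 difference of -0.22. After rescaling to the same sum these were 6 and 5 with a median of 0.01. *Fam83h*, which organises keratin filaments, had an FPKM of 10.4 in Lgr5+ cells and 1.28 in Lgr6+ cells. *Pkp3*, a plaque protein of desmosomes, had 28.6 and 7.60, and *Tchp*, which encodes the keratin binding protein trichoplein, had 26.1 and 9.63. *Perp*, a membrane protein of desmosomes, went the other way with 0.922 and 6.97. *Jup*, which encodes plakoglobin, had 12.6 and 16.3, under 1.5-fold. Both directions thus occurred among the partners of the keratins.

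Of 5 kept genes among 12 other intermediate filament genes, 1 was past 1.5-fold toward Lgr5+ cells and 2 toward Lgr6+ cells, with a median of 0.47, or 1 and 3 with a median of 0.71 after rescaling. *Iffo1*, a filament-like protein of the nucleus, had 1.17 and 16.9. Among 21 kept of 23 lamina partners, 4 were past 1.5-fold toward Lgr5+ cells and 7 toward Lgr6+ cells, with a median of 0.26. *Emd*, which encodes emerin of the inner nuclear membrane, had 12.3 and 3.12, whereas *Lbr*, the lamin B receptor, had 6.19 and 23.5. *Rce1*, a protease that processes prelamins, had 55.1 and 29.0. After rescaling to the same sum, 2 lamina partners were past 1.5-fold toward Lgr5+ cells and 10 toward Lgr6+ cells, with a median of 0.52. The split thus depends on the scaling. The median of all kept genes moved up by 0.26 in the same step, so this shift is not particular to the lamina partners.

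Of 47 microtubule-associated proteins 41 were kept, with 9 past 1.5-fold toward Lgr5+ cells, 14 toward Lgr6+ cells and a median of 0.17. The shares of all kept genes were 23.3% and 28.5%. After rescaling to the same sum the counts were 7 and 17 and the median 0.42. *Ckap5*, a microtubule polymerase, had an FPKM of 2.65 in Lgr5+ cells and 10.4 in Lgr6+ cells. The end-binding protein genes *Mapre3* and *Mapre2* had 6.07 and 20.2, and 3.53 and 10.9. *Clip1*, another protein of growing microtubule ends, had 27.1 and 9.74, *Dclk1* had 23.8 and 9.53, and *Eml2* had 6.21 and 0.975. Proteins of growing microtubule ends therefore were found on both sides.

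Of 48 genes that fold or modify tubulin 41 were kept, with a median of -0.25. Of these, 8 were past 1.5-fold toward Lgr5+ cells and 10 toward Lgr6+ cells, against 23.3% and 28.5% of all kept genes. After rescaling to the same sum the counts were 5 and 14 and the median 0.01, and *Pfdn5* was no longer past 1.5-fold, at -0.53. The prefoldin genes *Pfdn2* and *Pfdn5* had 491 and 146.9, and 1113 and 642, and *Tbcb*, a tubulin cofactor, had 222.0 and 122.0. Toward Lgr6+ cells, *Ttll3*, which adds glycine to tubulin, had 26.9 and 65.6. *Agtpbp1*, which trims glutamate from tubulin tails, had 6.52 and 13.4, and *Agbl4*, an enzyme of the same kind, was listed at 0 in Lgr5+ cells and at 8.10 in Lgr6+ cells. Folding and modifying genes were found on both sides, since the folding cofactor *Tbcc* had 26.7 and 48.9 and the ligase *Ttl*, which adds tyrosine to alpha-tubulin, had 4.51 and 1.60.

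All 24 partners of the gamma-tubulin ring were kept, with 5 past 1.5-fold toward Lgr5+ cells, 4 toward Lgr6+ cells and a median of 0.09. These became 5, 8 and 0.32 after rescaling to the same sum. The shares of all genes were 23.3% and 28.5% before rescaling and 16.8% and 38.7% after it. *Tubgcp2*, a core subunit of the ring, had 5.08 and 16.1, in the same direction as *Tubg1*. *Mzt1*, a small ring protein, had 20.1 and 30.9, and *Haus5* of the augmin complex had 1.15 and 7.19. *Pcnt*, which encodes pericentrin of the centrosome, had 10.1 and 2.82. The augmin genes *Haus7* and *Haus8* had 54.9 and 24.8, and 5.52 and a listed 0.

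**Figure D3:**
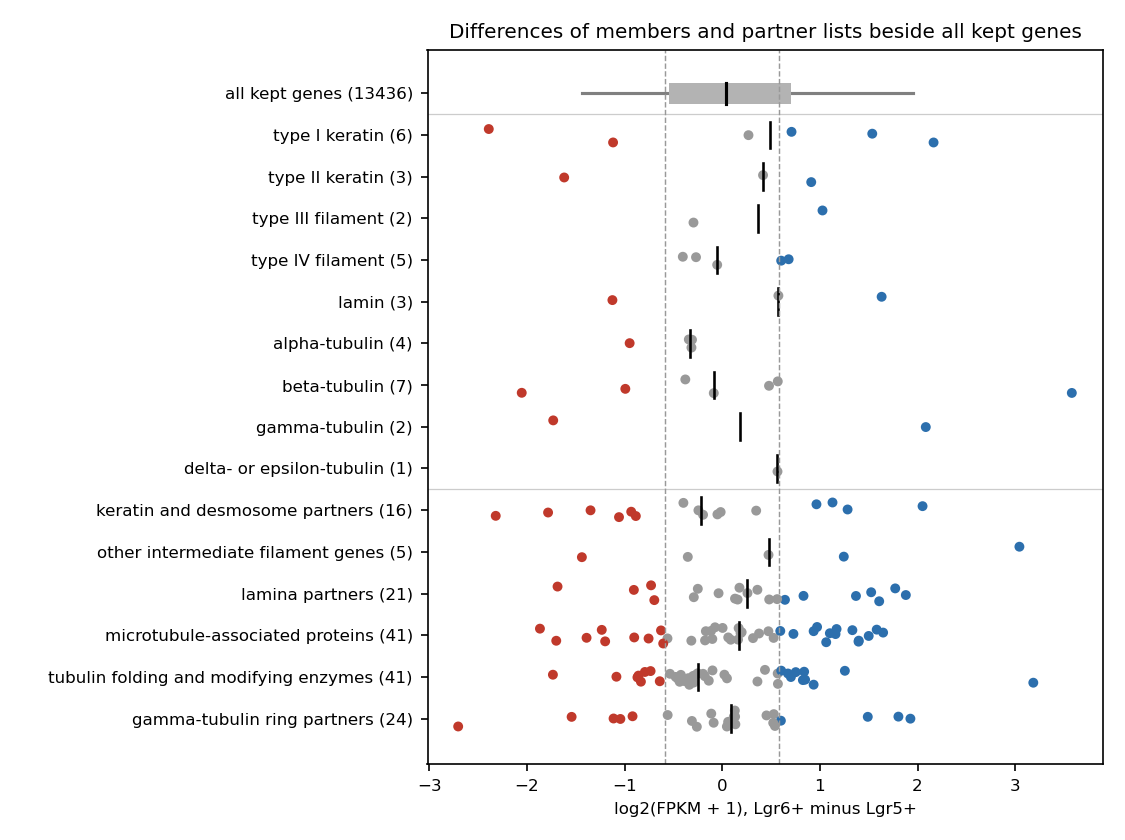
Log2(FPKM + 1) in Lgr6+ minus Lgr5+ cells for each kept member by class and each kept gene of the partner lists, with the number of genes in brackets, black ticks for medians and dashed lines at 1.5-fold. The top row gives all 13436 kept genes, with a grey box from the 25th to the 75th percentile and a line from the 5th to the 95th percentile (-1.44 to 1.95), and most members and partners lie within that line.

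**Figure D4:**
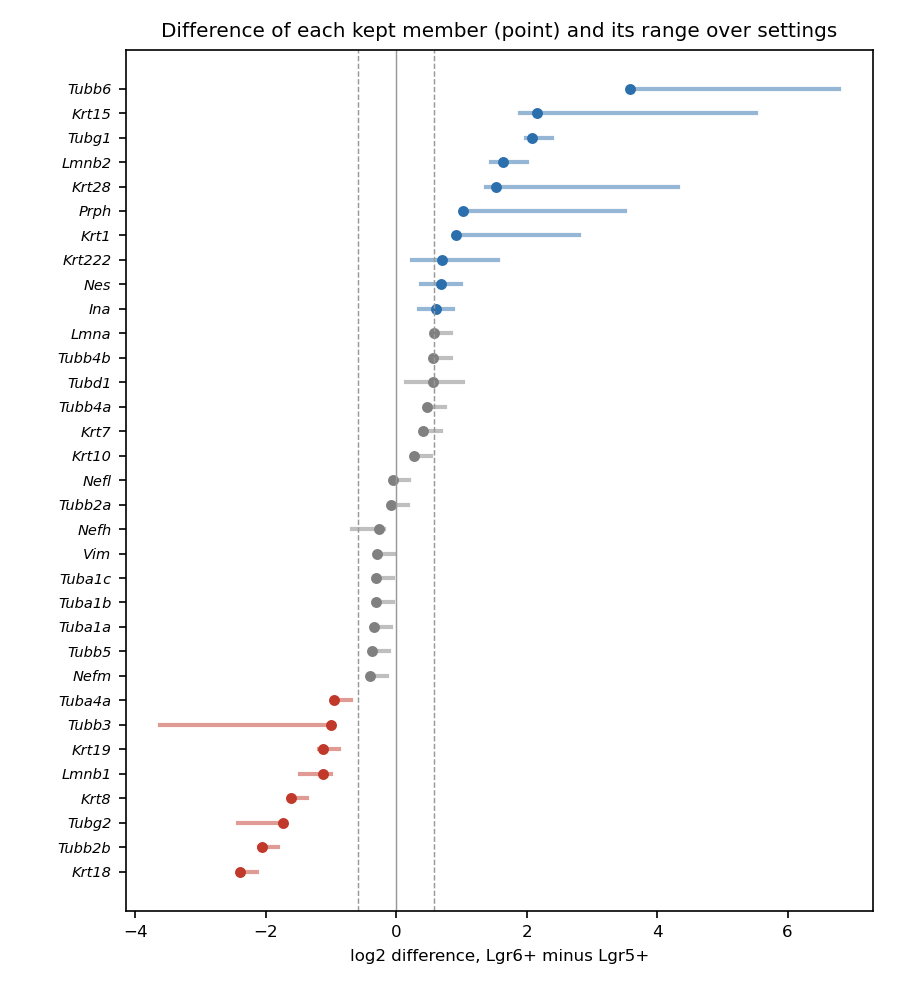
Log2 difference (Lgr6+ minus Lgr5+) of each of the 33 kept members as reported (point) and its lowest and highest value over the settings tried (bar), with dashed lines at 1.5-fold. The bars of *Krt18*, *Krt8*, *Tubb2b* and *Tubg2* stay left of the lower line, those of *Tubg1*, *Lmnb2* and *Tubb6* stay right of the upper line, and those of *Tuba1a*, *Tuba1b*, *Tuba1c* and *Vim* end just short of 0.

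The plot of these ranges shows which differences depend on the settings. Of the 18 genes past 1.5-fold, 15 stayed past it in every setting that kept them, and the exceptions were *Ina*, *Nes* and *Krt222*. None of the 18 changed sign, but filters, pseudocounts and the plain ratio cannot change a sign. Settings that only change the filter or leave out pseudogenes repeat the value of a kept gene. Only the rescalings and quantile normalization could have changed a sign. Rescaling to the same sum moved the median of all kept genes by only 0.26, so the unchanged signs carry little weight. For *Krt15*, *Krt28*, *Krt1*, *Krt222*, *Prph*, *Tubb6* and *Tubb3* the filter had fixed the direction, so their unchanged sign carries no weight. These genes also dropped out of stricter settings, as *Prph* was kept in 6 settings and *Tubb6* in 8, against 10 for *Krt18*. Of the 15 genes under 1.5-fold, *Nefl* and *Tubb2a* changed sign, both after rescaling to the same sum, where *Nefl* became 0.20 and *Tubb2a* 0.17, and *Tubb2a* also after quantile normalization. Others of the 15 passed 1.5-fold in some settings, namely *Lmna* in 4 of 10 and *Tubd1* in 3 of 8. *Nefh* did so in 2 of 8, *Tubb4b* in 2 of 10, and *Krt7* and *Tubb4a* in 1 of 10 each.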

How the data were processed

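Lgr5+ and Lgr6+ progenitors were each represented by 2 libraries in the labels. Reads were trimmed with Trimmomatic and mapped with TopHat, and genes were annotated with RefGene. The deposited FPKM values were calculated by the authors with Cufflinks, with the libraries of a population already combined. Versions are not given in the sources used here. The submitters' processing notes name the build mm10, that is GRCm38, whereas the methods name mm9. Of 79 genes of this group found in the RefSeq table of GRCm38.p6, 41 had the same start there once 1 was added to the deposited start, so positions are given as GRCm38, counted from 1. Fold changes, p-values and q-values of the authors' own comparison are also in the table and were not used.

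A limma fit had been planned for values of single libraries, which the table does not give, so no test was run. Genes that reached FPKM 1 in either population were kept, a pseudocount of 1 was added, and a gene was called at 1.5-fold, the fold that the study used. Kept members were named with their values, members under the filter were counted or named as examples, and from each partner list up to 3 genes in each direction that reached FPKM 5 could be named. *Snap25*, *Stmn2*, *Syt1*, *S100a1*, *Kcnj13*, *Krt5*, *Krt14*, *Gfap*, *Tbcc*, *Ttl* and the genes of shared intervals fall outside this rule, and their values were known when they were named. The members, lists and settings were chosen with earlier results of these data known. One marker gene of the planned lists and some sequences are not reported here. RefSeq promoters were found for *Krt8* and *Krt18*. Tubulin transcripts came from GENCODE of NCBIM37, matched by symbol or RefSeq synonym. The calculations were tested on simulated data and used Python 3.11.15, numpy 2.4.6, pandas 2.3.3 and matplotlib 3.10.9. Read counts and the depth of single libraries are unknown.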

Additional observations from a re-analysis of the deposited data

How the results depend on the processing

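The number of genes higher in Lgr5+ progenitors stayed within 1.5 times of 8 in all settings tried. It ran from 6 with a 2-fold threshold (18.2%, against 11.7% of all genes) to 10 with quantile normalization (31.25%, against 26.5%). The number higher in Lgr6+ progenitors, 10 as reported, was 3 of 23 (13.0%, against 24.1% of all genes) with a filter at FPKM 5 in either population and 4 of 24 (16.7%, against 21.4%) with the filter at FPKM 1 in both. It was 6 of 33 (18.2%, against 18.2%) with a 2-fold threshold and 15 of 34 (44.1%, against 38.7%) after rescaling to equal sums. The first 2 of these settings leave out low genes by construction. The median log2 difference of the genes, -0.05 as reported, was 0 without a filter, -0.31 with the filter at FPKM 5, -0.30 with the filter at FPKM 1 in both, 0.19 after rescaling to equal sums and -0.19 as a ratio without a pseudocount. The median of all genes was -0.02 with the filter at FPKM 5, -0.03 with the filter at FPKM 1 in both, 0.30 after rescaling and 0.004 as a ratio. The sign of the median of this group therefore depends on the scaling, which moved that of all genes as well. Over genes that reached FPKM 1 in both, the share of *Tubb4b* in beta-tubulin was 42.2% and 62.1%, and that of *Krt18* in type I keratin was 85.2% and 58.2%. No paired analysis was possible because the table has 1 combined value for each population, and no library could be left out for the same reason. The spread between libraries and the depth of each are unknown, so small differences such as those of *Tuba1a* or *Vim* cannot be set against an error.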
